A study of Mus musculus with 8 samples.

Results

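The genes described here encode microtubule motors and the proteins that build, bind or bundle microtubules. They were chosen by name: every gene whose symbol is Kif followed by a digit, which gave 38 kinesin entries, and 19 listed genes for tubulins, microtubule-associated proteins, stathmins and partners of dynein. All 57 were measured, out of 19938 genes on the array. One entry, Kif4-ps, is a pseudogene of Kif4.

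Expression was measured in neocortical layers II to IV, cut with a laser from newborn mice at postnatal day 2, with 1 array for each of 8 pups. The 4 mutant pups carried 2 floxed alleles of Bcl11a (flox/flox) and 1 copy of Cre recombinase in the Emx1 locus (IRESCre/+). The 4 control pups carried the same Cre with 1 floxed Bcl11a allele (flox/+), so Cre-expressing cells of controls also lose 1 allele, and the comparison is loss of both alleles against loss of 1. Emx1 is active in the progenitors of cortical excitatory neurons and much of the glia, so interneurons, microglia and vessel cells in the cut tissue keep Bcl11a. Bcl11a, a zinc finger transcription factor, read 8.63 ± 0.21 in mutant and 10.45 ± 0.13 in control tissue on the log2 scale (SD, n = 4 each; limma adjusted p = 4.90e-07). Both sexes were present in each group, with high Xist in 1 mutant and 2 control arrays.

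Microtubules are polar tubes of alpha and beta tubulin along which kinesins and dynein carry cargo, most kinesins towards the plus end that points to the axon tip. In migrating cortical neurons they pull the nucleus forward, and mutations in the tubulin genes, in Dcx or in Pafah1b1 are known causes of human lissencephaly and related malformations. Proliferating cells use another set of kinesins to build the spindle and to divide.

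Kif26b was the only 1 of the 57 genes that changed, and it rose. The call was an adjusted p under 0.05 from limma, with Benjamini-Hochberg adjustment over all 19938 genes. Of the 57, 1 rose (1.75%), 0 fell and 56 did not pass, while over all genes 4.15% passed, 2.36% higher and 1.79% lower in the mutant. At an unadjusted p under 0.05, 2 of the 57 were higher and 2 lower (7.02% together, against 13.99% of all genes). The median log2 difference, mutant minus control, was 0.0014 over the 57 and 0.017 over all genes. Mutant and control values did not overlap for 4 of the 57 (7.02%), namely Kif26b, Kif13a, Kif17 and Stmn3, against a background of 9.25% of all genes.

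The promoter of Kif26b is shown because it is the one kinesin gene that passed the test, beside that of Kif26a, the other member of its family, which did not pass. Each line is the 250 bases before the RefSeq start of the gene (GRCm38.p6, both on the plus strand), 5′ to 3′, at chr1:178528875-178529124 for Kif26b and chr12:112145958-112146207 for Kif26a. Capitals mark CpG dinucleotides.
Kif26b: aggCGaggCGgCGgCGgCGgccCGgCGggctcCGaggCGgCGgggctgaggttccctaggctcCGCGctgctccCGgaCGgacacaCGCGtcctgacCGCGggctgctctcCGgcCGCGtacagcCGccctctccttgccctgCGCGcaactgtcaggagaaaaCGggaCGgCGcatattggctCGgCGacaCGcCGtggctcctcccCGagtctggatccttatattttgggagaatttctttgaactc
Kif26a: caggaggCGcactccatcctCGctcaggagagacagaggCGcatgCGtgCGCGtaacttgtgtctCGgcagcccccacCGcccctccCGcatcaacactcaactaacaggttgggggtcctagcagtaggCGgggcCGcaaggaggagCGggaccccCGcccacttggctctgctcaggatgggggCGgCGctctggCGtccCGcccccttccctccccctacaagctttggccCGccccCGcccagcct
The Kif26b window is 68.4% G and C with 32 CpG dinucleotides, and the Kif26a window is 69.2% G and C with 19, where the medians over 27025 genes in the same table were 52% and 6. The letters TGACCA, a motif bound by human BCL11A in erythroid cells, and TTCCTAGAA, a BCL6 motif, were searched on both strands. The motifs do not overlap each other, and neither window holds either of them. TGACCA was found in the windows of 8 of the 44 microtubule genes with a promoter entry (18.2%), against 13% of the 27025 genes, and TTCCTAGAA in 0 of 44, against 0.396%. A match or its absence in these letters is a description of the window alone.

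Kif26b encodes a kinesin-11, an atypical kinesin that binds microtubules without acting as a conventional ATP-driven walker and is known from kidney development and Wnt5a-Ror signalling. It read 9.29, 9.40, 9.37 and 8.98 in the mutant pups, against 8.57, 8.58, 8.06 and 8.26 in the control pups. The lowest mutant pup lay above the highest control pup. The log2 difference was 0.89 (SE 0.12, limma adjusted p = 0.000679), which is 1.86-fold with a 95% interval of 1.55 to 2.23, and an exact permutation test (two-sided) gave p = 0.0286, the smallest that 4 arrays against 4 allow. By absolute difference the gene stood at place 110 of 19938. Without moderation of its variance the adjusted p was 0.0705.

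A dimmer probe set of Kif26b gave the same picture. It read 8.94, 8.97, 8.90 and 8.78 in mutant tissue, against 8.06, 8.12, 7.78 and 7.87 in control tissue, again without overlap. Its log2 difference was 0.94 (SE 0.083), with a limma adjusted p of 2.60e-05 over all probe sets with 1 symbol and of 0.0164 without moderation. In both probe sets control 3 and control 4 were the lowest arrays and mutant 4 the lowest of the mutants.

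Kif26a, the paralog that restrains GDNF-Ret signalling in enteric neurons of the mouse, read 6.39, 6.10, 6.04 and 6.15 in mutant pups, against 6.09, 5.99, 5.99 and 6.12 in control pups. The groups overlapped, and its log2 difference was 0.12 (95% interval -0.053 to 0.30, limma adjusted p = 0.584). Within each array, the Kif26b value minus the Kif26a value was 3.09 ± 0.26 in mutants and 2.32 ± 0.25 in controls (SD, n = 4 each). The groups differed by 0.77. Kif26b was chosen because it passed, and the pair was set side by side after the values had been seen. This difference therefore largely restates that of Kif26b and is no separate test of the paralogs.

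**Figure D1:**
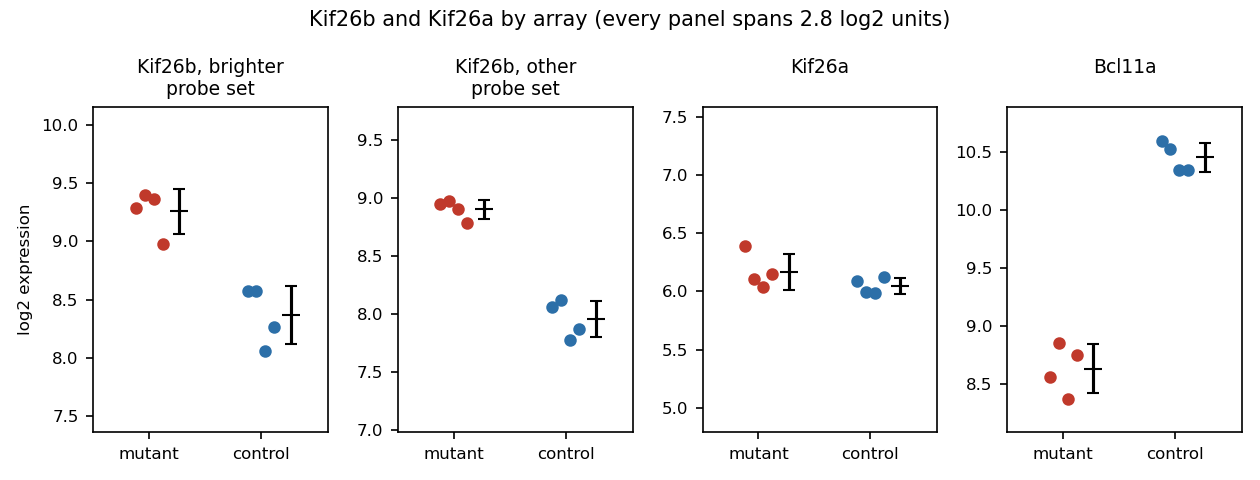
Log2 expression by array of both Kif26b probe sets, of Kif26a and of Bcl11a, with mutant pups left (red) and control pups right (blue); each point is 1 pup, and the bar beside the points is the mean with the SD over 4 pups. Both Kif26b probe sets are higher in every mutant (at least 8.98 against at most 8.58 in the brighter one), Kif26a overlaps, and Bcl11a is lower in every mutant.

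Some marker lists of cell types also had different mean levels in the groups. Of 9 upper-layer neuron markers 5 fell, 0 rose and 4 did not pass, with Cux2 (-1.29) and Mdga1 (-1.07) the largest falls and differences above 0 for Unc5d (0.46), Plxnd1 (0.25) and Rorb (0.11). Their mean level lay between 8.96 and 9.13 in mutants and between 9.27 and 9.42 in controls. Of 11 interneuron markers 2 fell, Npy (-1.63) and Dlx1 (-0.46), and 9 did not pass; the mean level lay between 6.67 and 6.76 in mutants and between 6.98 and 7.09 in controls. Of 10 endothelial and pericyte markers 1 fell, Abcc9 (-0.32), and 9 did not pass, with a mean level between 6.41 and 6.59 in mutants and between 6.60 and 6.68 in controls. Of 7 ependymal markers 0 passed (2 at an unadjusted p under 0.05), with a mean level of 4.64 to 4.74 in mutants and 4.54 to 4.60 in controls. These 4 means did not overlap between the groups, though by little for the vessel list (6.592 and 6.596 at the closest). The means of the other 8 of 12 marker lists overlapped, but some genes of these lists also passed. Of 10 deep-layer markers 1 fell, Ntsr1 (-0.90), while 7 differences were above 0, the largest that of Fezf2 (0.80, not passed). Of 10 radial glia and progenitor markers 1 fell, Vim (-0.36), while 6 differences were above 0. Over all 19938 genes, 11458 differences were above 0. The highest value of 3 Y-linked genes on the 3 arrays with high Xist, 4.31, was taken as the background reading of the arrays. No upper-layer, interneuron or vessel marker had a mean at or below it, and 2 ependymal markers, Dnah11 and Rsph1, did. The part of these shifts in the rise of Kif26b was not tested. In such bulk tissue, fewer cells of a type and less RNA per cell cannot be told apart.

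The remaining 56 genes had small differences, with a median SE of 0.075 against 0.077 over all genes. Their log2 differences ran from -0.23 to 0.34, and 43 of the 56 were under 0.1 in size. For 53 of the 56 the 95% interval of the difference, not adjusted for the number of genes, lay within 1.25-fold in either direction, and for all 56 it lay within 1.5-fold. Of the 47 with a mean above the background reading, 44 had an interval within 1.25-fold. Over all genes, those that passed included, the share was 78.1%. Given each gene's own SE, a log2 difference of 0.22 to 0.42 (1.17-fold to 1.34-fold) would have reached the threshold.

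**Figure D2:**
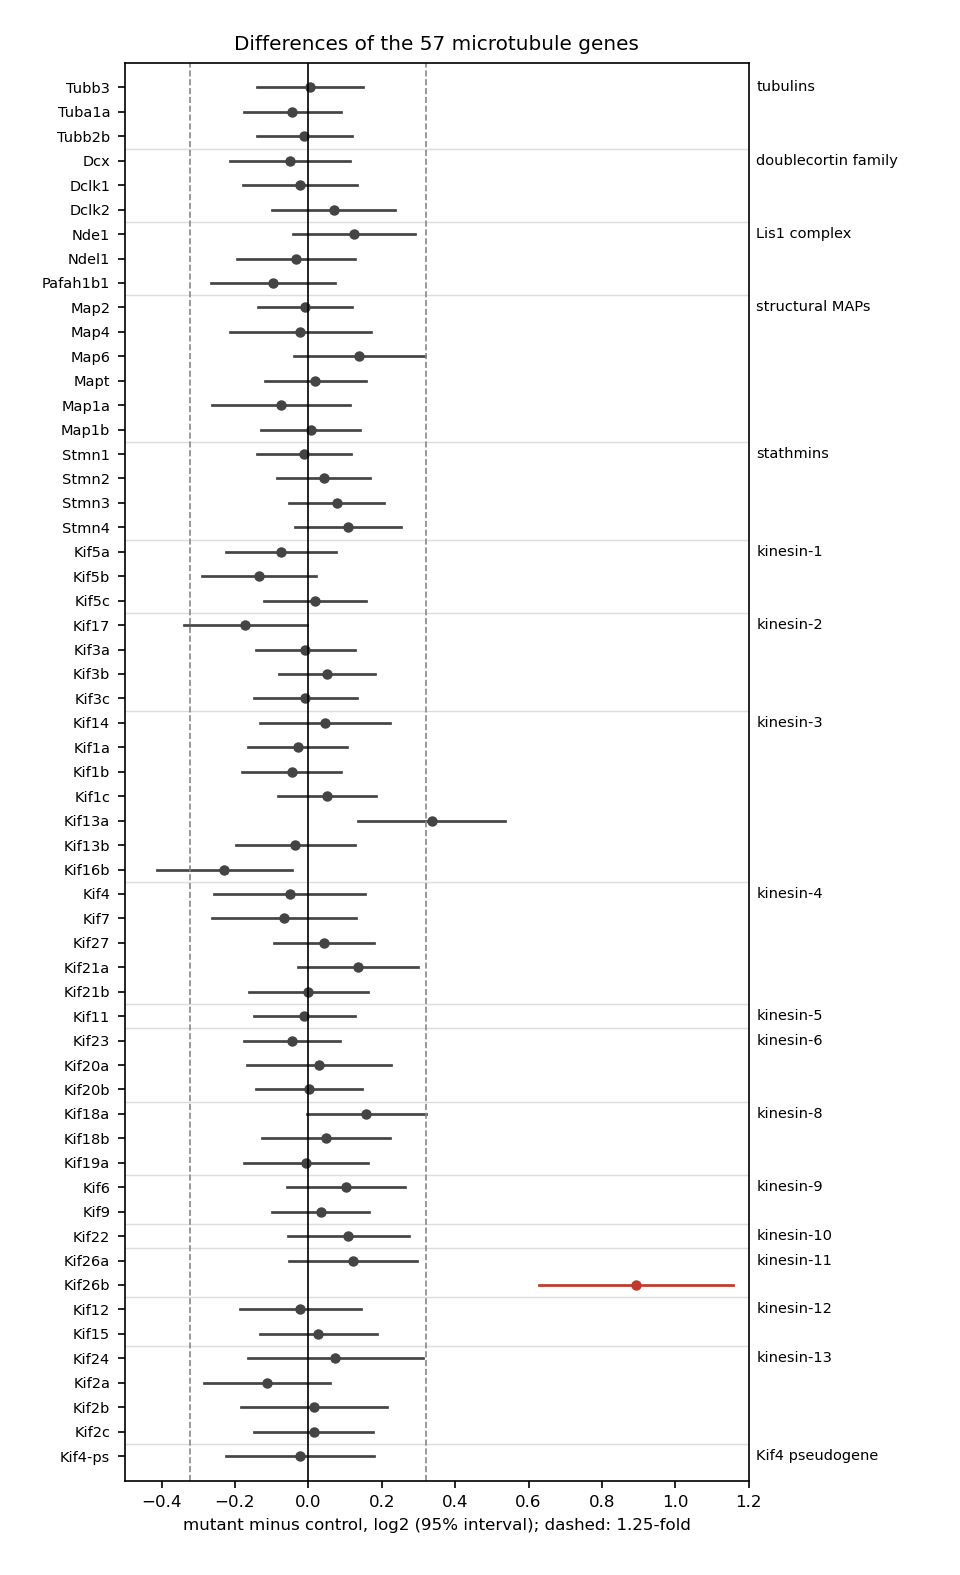
Mutant minus control log2 difference of each of the 57 genes (points) with its 95% interval (lines), grouped by family from tubulins to kinesin-13 down the page; dashed lines mark 1.25-fold. The interval of Kif26b (red, the gene that passed) starts at 0.63, while those of Kif13a, Kif16b and Kif17 are the 3 others that cross a dashed line.

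**Figure D3:**
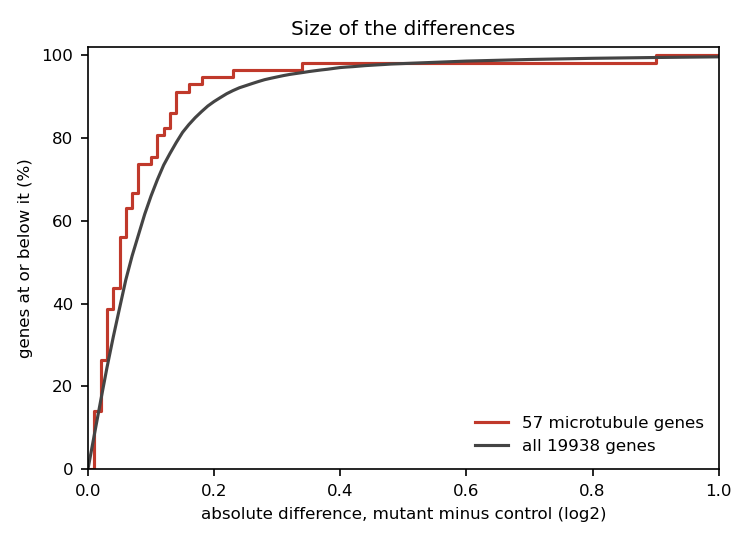
Share of genes (vertical axis, percent) whose absolute log2 difference is at or below the value on the horizontal axis, for the 57 microtubule genes (red) and all 19938 genes (grey). At 0.10 the share is 75.4% of the microtubule genes and 66.0% of all genes, and the last red step is Kif26b at 0.89.

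Of the tubulin genes, which encode the building blocks of microtubules, 0 of 3 passed. Tuba1a, the main alpha tubulin of newborn neurons, read 13.24, 13.34, 13.32 and 13.39 in mutants, against 13.40, 13.37, 13.32 and 13.38 in controls. The beta tubulin genes Tubb2b and Tubb3, of which Tubb3 is a marker of young neurons, had log2 differences of -0.011 (95% interval -0.14 to 0.12) and 0.0047 (-0.14 to 0.15). Another 4 probe sets carry several tubulin symbols, among them Tuba1a or Tubb2b, and their differences lay between -0.0092 and 0.0020.

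Members of the doublecortin family, which brace microtubules along the lattice in migrating neurons and growing axons, did not pass. Dcx read 11.39, 11.47, 11.55 and 11.25 in mutant pups, against 11.52, 11.51, 11.47 and 11.36 in control pups, a log2 difference of -0.051 (95% interval -0.21 to 0.11). The kinase-bearing relatives Dclk1 and Dclk2 had differences of -0.022 and 0.069. Nor did the regulators of dynein: Pafah1b1, which encodes LIS1, had a difference of -0.097 (95% interval -0.27 to 0.071), and its partners Ndel1 and Nde1 had -0.033 and 0.12.

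Of the 6 structural microtubule-associated proteins, 0 passed, and their log2 differences ran from -0.074 to 0.14. Map2, which lines dendrites, and Mapt, the axonal protein tau, had 95% intervals of -0.14 to 0.12 and -0.12 to 0.16. Map1b, the form that leads in growing axons, had a difference of 0.0062, and Map1a, its later-appearing relative, had -0.074. The largest of the 6 by size was Map6, which stabilises microtubules against cold, at 0.14 (limma adjusted p = 0.523). Its lowest array was control 1, at 8.91, with the other 7 arrays between 9.15 and 9.37.

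Stathmins bind free tubulin and promote the shrinkage of microtubules. None of their 4 genes passed: Stmn1 had a log2 difference of -0.011, Stmn2 one of 0.042, Stmn3 one of 0.077 and Stmn4 one of 0.11. Stmn3 is the one of them without overlap: it read 10.84, 10.77, 10.73 and 10.73 in mutants, against 10.70, 10.64, 10.73 and 10.69 in controls, but the lowest mutant and the highest control array agree to the second decimal and its limma adjusted p was 0.660. The second probe sets of Stmn1 and Stmn3 gave differences of -0.019 and 0.072. That of Stmn3 read 3.65 in mutants and 3.58 in controls, below the background reading of 4.31, so it carries little information on the RNA.

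Transport kinesins of neurons did not pass either. The kinesin-1 heavy chains Kif5a, Kif5b and Kif5c, the conventional motors of fast axonal transport, had log2 differences of -0.075, -0.13 and 0.018. Of the kinesin-2 genes, Kif3a, Kif3b and Kif3c, whose products work in cilia and axons, had differences between -0.0084 and 0.051. Kif1a and Kif1b, which carry precursors of synaptic vesicles, had -0.029 and -0.045, and both intervals lay within 1.25-fold. Kif21a and Kif21b, kinesin-4 motors that curb microtubule growth, had 0.13 and -0.00024. Kif2a, a kinesin-13 that takes microtubules apart and restrains axon branches, had -0.11.

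The largest differences among genes that did not pass were those of Kif13a, Kif16b and Kif17. Kif13a, a kinesin-3 that moves endosomes and Golgi-derived vesicles, read 6.76, 6.60, 6.63 and 6.63 in mutant pups, against 6.01, 6.46, 6.41 and 6.38 in control pups. All mutant values lay above all control values, and control 1 was the lowest. The log2 difference was 0.34 (SE 0.093, limma adjusted p = 0.0667, exact two-sided permutation p = 0.0286), and without control 1 it was 0.23 (limma adjusted p = 0.0870). Every gene without overlap has this exact p, Kif17 and Stmn3 included, and 9.25% of all genes had no overlap. Kif13a passed in 2 of 20 alternative settings, without the dimmest 50% of genes (limma adjusted p = 0.0452) and at a threshold of 0.10.

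Kif16b, a kinesin-3 of early endosomes, read 5.26, 5.35, 5.40 and 5.22 in mutants, against 5.33, 5.48, 5.62 and 5.72 in controls. The groups overlapped at control 1, and the log2 difference of -0.23 (95% interval -0.41 to -0.046) had a limma adjusted p of 0.206. Kif17, known for carrying NMDA receptor subunits in dendrites, read 4.38, 4.34, 4.33 and 4.29 in mutants, against 4.41, 4.45, 4.43 and 4.73 in controls. Its values did not overlap, but mutant 4 lay below the background reading of 4.31, control 4 stood apart, and the difference of -0.17 had a limma adjusted p of 0.339.

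**Figure D4:**
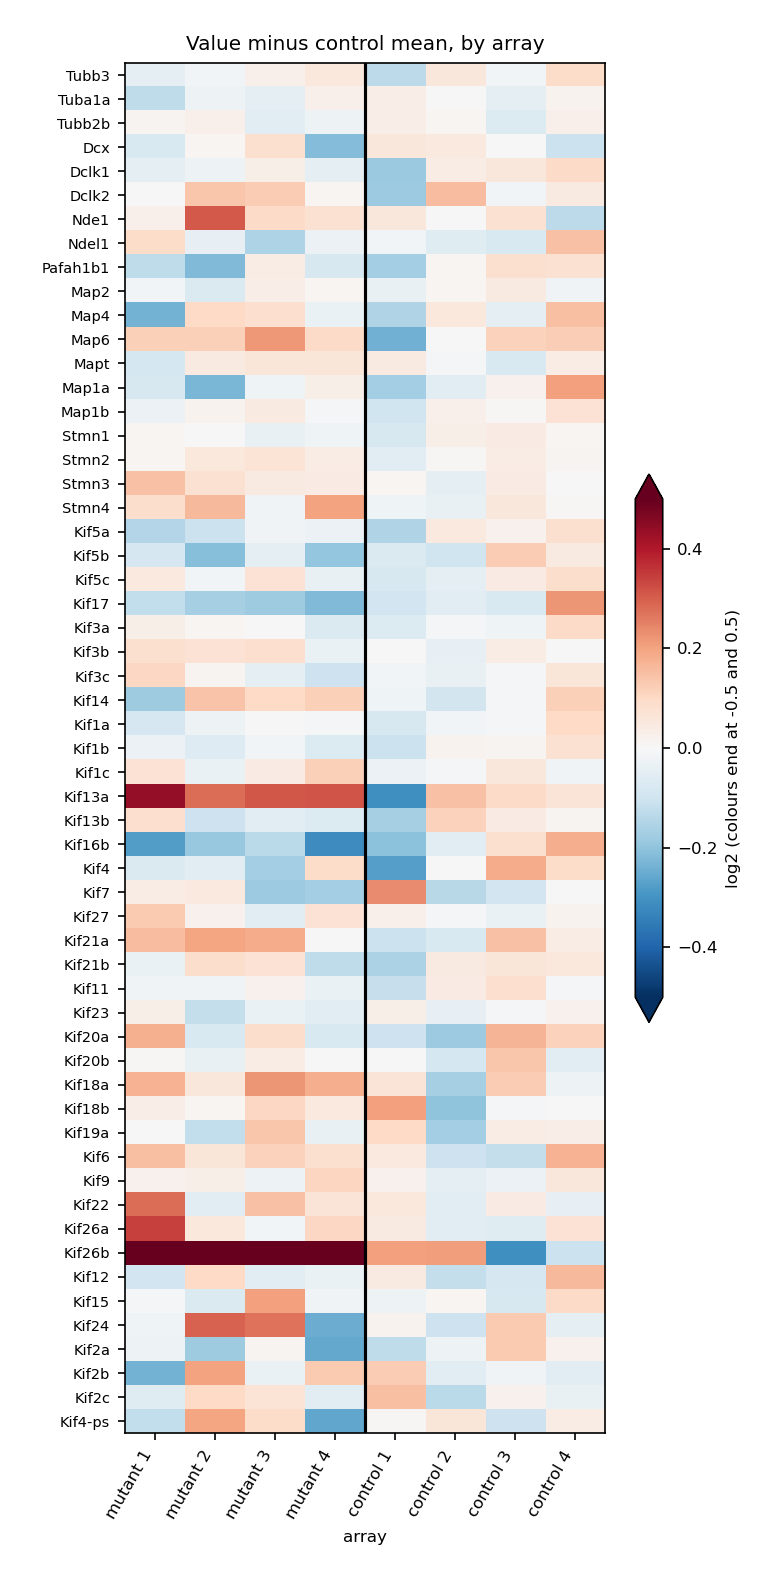
Value of each of the 57 genes on each array minus the gene's control mean (log2; blue below, red above, colours end at -0.5 and 0.5), with mutants left of the line and controls right of it. The Kif26b row is beyond the upper end of the scale in all 4 mutants, and the Kif13a row is above 0 in all 4 mutants and lowest in control 1.

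The kinesins of dividing cells did not pass. The list of 11 holds Kif11, the motor that pushes spindle poles apart, Kif20a, Kif20b and Kif23 of the cytokinetic bridge, Kif4 and Kif22 on chromosome arms, Kif2c and Kif18a at kinetochore microtubules, and Kif14, Kif15 and Kif18b. Their log2 differences ran from -0.050 for Kif4 to 0.16 for Kif18a, with a median of 0.027, and all 11 intervals lay within 1.25-fold. Of 22 markers of dividing cells, 0 passed in limma (0 also at an unadjusted p under 0.05), and their mean level was 5.70 to 5.79 in mutants and 5.66 to 5.76 in controls. At 4 of the 11 (Kif14, Kif15, Kif18a and Kif20b) the mean lay at or below the background reading, so that these values carry little information on the RNA.

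Another 5 kinesin entries lay at or below the background reading as well: Kif2b, Kif9, Kif24, Kif27 and the pseudogene Kif4-ps, which may share signal with Kif4. Among the other kinesins, Kif7, a ciliary regulator of Hedgehog signalling, had a log2 difference of -0.066 and Kif13b one of -0.035. Kif6, Kif12, Kif19a and Kif1c had differences between -0.022 and 0.10. Besides Kif26b, 8 of the 57 genes had more than 1 probe set with a single symbol, and no second probe set of these passed (differences from -0.15 to 0.072). Those of Kif14, Kif1c, Kif4-ps, Kif6 and Stmn3 read below the background reading of 4.31 in both groups. That of Map4 lay about at it, with 4.26 in mutants and 4.36 in controls. Such dim probe sets carry little information on the RNA.

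Other genes of the microtubule system were listed by function to set beside these: dynein and dynactin subunits, motor adaptors, other tubulins, plus-end and lattice regulators, severing and tubulin-modifying enzymes, and kinases of microtubule proteins. The arrays measured 150 of them. The test was passed by 1 that rose and 6 that fell, and not by the other 143, so 4.67% passed, against 4.15% of all genes. At an unadjusted limma p under 0.05 the share was 18% of the 150 (16 higher, 11 lower), against 13.99% of all genes. Mutant and control values did not overlap for 12%, against 9.25%. These lists were chosen with earlier results of these data known, so the shares describe the lists and are no test of them. None of 19 other tubulin-list genes and none of 21 adaptors and light chains passed in limma (0 and 6 at an unadjusted p under 0.05). Of the 21 adaptor differences, 16 were above 0 and 5 below, where 11458 of all 19938 genes had a difference above 0. The gene that rose was Dclk3, a kinase related to Dclk1 and Dclk2. It read 8.09, 8.14, 8.28 and 7.89 in mutants, against 7.02, 7.13, 7.25 and 7.32 in controls, a log2 difference of 0.92 (SE 0.091, limma adjusted p = 6.04e-05), or 1.89-fold.

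Of 17 dynein and dynactin genes 1 fell, Dync1i1, an intermediate chain of neuronal cytoplasmic dynein. It read 8.82, 8.82, 8.73 and 8.75 in mutants, against 9.68, 9.48, 9.44 and 9.63 in controls, and the groups were far apart. The log2 difference was -0.78 (SE 0.070, limma adjusted p = 2.88e-05), a fall of 1.71-fold with a 95% interval of 1.54 to 1.90. Agtpbp1, which trims glutamate chains from tubulin and is lost in mice with Purkinje cell degeneration, fell by 0.46 on the log2 scale (limma adjusted p = 7.80e-04), with 9.87 ± 0.059 in mutants and 10.33 ± 0.075 in controls (SD, n = 4 each). Sgk1, a kinase induced by glucocorticoids, fell by 0.57 (limma adjusted p = 0.00200, and 0.0726 without moderation of the variance).

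Smaller falls were those of Slain1 (-0.32) and Slain2 (-0.34), plus-end proteins that recruit a microtubule polymerase, and of Vash2 (-0.27), an enzyme that removes the terminal tyrosine of alpha tubulin. Their limma adjusted p-values were 0.0169, 0.0207 and 0.0224, and mutant and control values did not overlap. The calls were lost when single arrays were left out: that of Slain1 without mutant 4 or control 4 (limma adjusted p = 0.0540 and 0.0525), that of Slain2 without mutant 1, 2 or 4 or control 3 or 4 (0.0507 to 0.0707), and that of Vash2 without mutant 1, 3 or 4 or control 2, 3 or 4 (0.0504 to 0.0726). Without moderation of the variance Slain1 and Slain2 lost the call as well (adjusted p = 0.0803 and 0.122). Averaged over its probe sets, Slain2 had a difference of -0.21 (limma adjusted p = 0.112). The count of these other genes that rose was 3 without mutant 1, control 1 or control 4 and 2 without mutant 4, and the count that fell was 3 without control 4. Both counts are given without the share of all genes in the same settings, so they are no result about microtubule genes. In the same mutants 5 of 9 upper-layer and 2 of 11 interneuron markers fell, and their part in these falls was not tested.

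**Figure D5:**
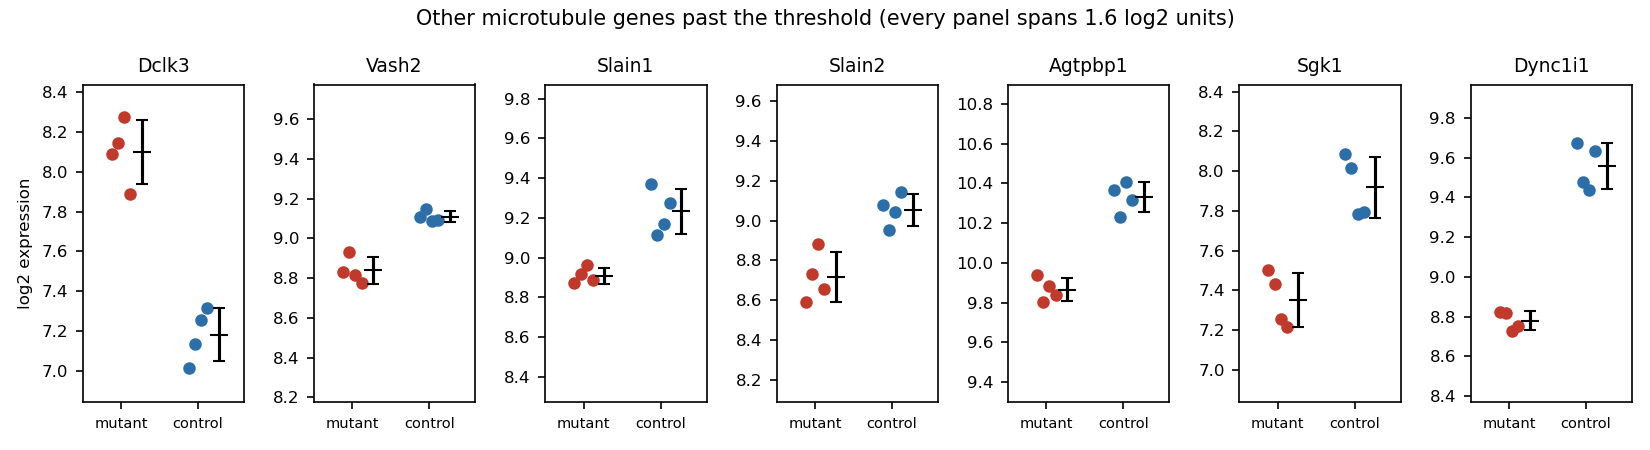
Log2 expression by array of the 7 other microtubule genes that passed, with mutant pups left (red) and control pups right (blue); points are pups and bars the mean with the SD over 4 pups. Dclk3 is higher in every mutant and the other 6 are lower in every mutant, with the widest gap among the falls at Dync1i1 (at most 8.82 against at least 9.44).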

How the data were processed

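Values were the deposited log2 expression table of Affymetrix GeneChip Mouse Gene 1.0 ST arrays. Per the labels, the authors used BRB-ArrayTools; which background correction, normalization, summarisation and logarithm base they chose is not stated there. The values run from 2.03 to 13.85 with array medians of 4.83 to 4.91, and were taken as log2 and already normalized between arrays. The array's gene annotation gave 1 symbol for 21789 of 35556 probe sets. Each gene was read from its brightest such probe set over the 8 arrays, with no filter on dim genes. Arrays correlated at 0.991 to 0.997.

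Mutants and controls were compared on genotype alone with limma 3.58.1 in R 4.3.3 (two-sided, moderated variances), and p-values were adjusted by Benjamini-Hochberg over all 19938 genes. The procedure was tested on simulated data with independent noise for each gene, which does not bear on any single call here. Alternatives changed the normalization, the filter on dim genes, the choice of probe set, array weights, variance moderation, the threshold and the covariates (replicate number, inferred sex), or left out each array in turn. The precision is limited by the number of arrays, and the median SE was 0.077. The genes and lists were chosen with earlier results of these data known. Every gene of the rule could be named; those past the threshold, the 3 with the largest other differences and up to 4 called genes of each other list were given in detail. Stmn3, Tuba1a, Dcx and Kif26a were given by array after their values had been seen. Promoters came from RefSeq (GRCm38.p6).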

Additional observations from a re-analysis of the deposited data

Results flagged for a closer look

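In 128 groups of 4 arrays (the 57 microtubule genes and 7 other genes that passed, by genotype), 5 values stood apart from the other 3 of their group by Dixon's ratio, where chance gives about 1 in 20 groups. Kif17 read 4.73 in control 4, against 4.41 to 4.45 in the other controls. Kif14 read 3.38 in mutant 1 (others 3.66 to 3.70), Kif3b 8.37 in mutant 4 (8.47 to 8.48), Mapt 10.47 in mutant 1 (10.60 to 10.62) and Kif21b 10.18 in control 1 (10.38 to 10.40). None of these 5 genes passed the test.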

How the results depend on the processing

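Kif26b kept its direction in all 22 alternatives, with a log2 difference of 0.79 to 0.99, and its call in 21. Without variance moderation it lost the call (adjusted p = 0.0705), the number of the 57 genes that rose was 0, the genes changed on the array were 249, and 3 of the other microtubule genes fell. Without any 1 array the 57 held 1 riser and 0 that fell, its adjusted p stayed between 4.15e-04 and 0.00435, and 584 to 814 genes changed on the array; the other microtubule genes held 1 to 3 that rose and 3 to 6 that fell. The count of the 57 that rose was 2, with Kif13a added, without the dimmest 50% of genes and at an adjusted p under 0.10. At a threshold of 0.01, 447 genes changed on the array and 3 of the other microtubule genes fell. The count of other microtubule genes that rose was 2 without the dimmest 50% of genes and with array weights, 3 with an intensity trend and robust variances, 4 at 0.10, and 5 with the replicate number as a block. These counts, and those without single arrays, are not set beside the share of all genes that rose or fell in the same settings. They describe the settings and are no result about microtubule genes. The replicate block changed no call among the 57. Same-numbered arrays had correlations of their deviations from the group means of 0.109, 0.056, 0.295 and 0.149, and 6 of 8 arrays correlated best with their own number. The correlation of number 2 was under 0.1 and the labels name no shared litter or day, so the numbers were not taken as pairs; the best matches are a hint from the data, not the design. Causes of these shifts were not tested, and the filters also reduced the number of genes in the adjustment. The second probe set of Kif26b was added after seeing the data.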
